A study of Mus musculus with 21 samples.

Results

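Of 270959 open-chromatin regions built from 21 mouse libraries, 14732 (5.44%) held a summit in every library, and these 14732 regions are described here. They were chosen from measured values. The 100000 summits with the highest peak score were kept from each library. Kept summits of all libraries were then pooled in order of their rank, and each summit at least 500 bp from those already accepted became the centre of a 500 bp region. A library occupied a region if it had a kept summit inside it, and a region occupied in all 21 libraries is called shared. Each shared region therefore lies within the first 100000 ranks everywhere by choice, so its presence across libraries is a description and was not tested.

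Chromatin was profiled with Omni-ATAC, in which a transposase inserts sequencing adapters into accessible DNA, along a path from cerebellar progenitors to medulloblastoma and in a medulloblastoma cell line after knockdown of an NFI transcription factor. The libraries form 7 groups of 3. All primary cells were EGFP-positive cells sorted from cerebella of Atoh1-EGFP mice, in which EGFP marks cells of the granule lineage. The first group was granule neuron progenitors (GNP) at postnatal day 7, with sample titles that read Ptch1GNP and no stated genotype. The second was hyperplasia at postnatal day 28 (titles PNC), and the third was medulloblastoma (tumor), for which no age is listed. The GNP and hyperplasia cells were prepared on a percoll gradient, and the tumor cells with trypsin and DNase followed by a cell strainer. The other 12 libraries came from VDR, labelled as a medulloblastoma cell line. They were cells with no listed treatment (VDR), cells labelled siNC as the control, and cells in which Nfia (siNfia) or Nfib (siNfib) was the target. The labels say siRNA and the names of the lists begin with sh, which leaves the knockdown reagent unclear. It is not stated if a group's libraries stem from different animals or cultures, so p-values measure only the spread between these libraries, which may be technical.

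Accessible chromatin marks the promoters and enhancers of a cell. Promoters of genes that every cell needs are typically rich in CpG dinucleotides and are kept free of nucleosomes in most tissues, whereas enhancers tend to open in particular lineages. In granule progenitors the Hedgehog pathway drives division through Smo and the Gli factors, Ptch1 restrains it, and Atoh1 keeps the progenitor state; Hedgehog-type medulloblastomas arise when that restraint is lost.

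The promoters of 5 genes with a shared region at the start are printed beside 1 that has none, to show the letters on which the motif counts rest. They were picked for rank or as members of a gene list and do not stand for the shared regions away from starts. They are RefSeq sequences of the GRCm38.p6 assembly, running 5′ to 3′ on the strand of the gene from 250 bases before to 50 bases after its listed start. Hjurp (chr1:88277530-88277829, minus strand) and Slc25a42 (chr8:70212232-70212531, minus strand) carried 2 of the strongest shared regions. E2f3 (chr13:29986014-29986313, minus strand), Zic5 (chr14:122465609-122465908, minus strand) and Rpl37 (chr15:5116363-5116662, plus strand) stand for the cell cycle, the granule lineage and the ribosome. Olfr1 (chr11:73399446-73399745, minus strand) is an olfactory receptor gene with no region in any library. Capitals mark matches on either strand to GGGCGG (bound by SP and KLF factors), CCAAT (NFY), CCGGAAGT (ETS factors) and TTGGCA (the NFI core). None of the 6 held a match to the other motifs searched, which were TGACGTCA (CRE), CAGCTG (E-box), GCATGCGC (NRF1), AAGATGGC (YY1), GACCACCCA (GLI), a CTCF consensus, TATAAA for the TATA box and TGANTCA for AP-1. The letters ATTGGCA hold both an NFY and an NFI match.
Hjurp: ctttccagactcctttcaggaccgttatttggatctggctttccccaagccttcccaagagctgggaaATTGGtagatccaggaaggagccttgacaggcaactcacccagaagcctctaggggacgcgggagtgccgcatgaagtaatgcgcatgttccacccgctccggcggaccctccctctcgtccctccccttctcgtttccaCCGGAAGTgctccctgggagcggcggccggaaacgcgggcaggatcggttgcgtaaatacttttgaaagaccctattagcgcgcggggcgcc
Slc25a42: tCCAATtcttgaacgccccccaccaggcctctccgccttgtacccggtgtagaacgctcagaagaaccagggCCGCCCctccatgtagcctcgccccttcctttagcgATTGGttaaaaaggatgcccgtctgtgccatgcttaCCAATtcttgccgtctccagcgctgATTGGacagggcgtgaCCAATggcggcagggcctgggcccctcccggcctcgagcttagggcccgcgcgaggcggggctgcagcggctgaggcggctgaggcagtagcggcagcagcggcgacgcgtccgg
E2f3: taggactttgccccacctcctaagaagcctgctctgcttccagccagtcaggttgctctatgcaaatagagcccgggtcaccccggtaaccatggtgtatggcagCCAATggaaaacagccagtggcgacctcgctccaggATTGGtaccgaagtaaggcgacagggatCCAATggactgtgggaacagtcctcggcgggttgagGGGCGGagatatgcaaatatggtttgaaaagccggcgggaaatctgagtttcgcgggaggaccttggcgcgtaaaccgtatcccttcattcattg
Zic5: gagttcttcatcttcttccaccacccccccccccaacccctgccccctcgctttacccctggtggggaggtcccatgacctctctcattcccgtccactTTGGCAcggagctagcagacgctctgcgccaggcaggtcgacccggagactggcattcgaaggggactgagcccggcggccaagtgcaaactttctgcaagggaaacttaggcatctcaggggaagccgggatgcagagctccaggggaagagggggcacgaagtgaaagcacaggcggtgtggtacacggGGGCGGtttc
Rpl37: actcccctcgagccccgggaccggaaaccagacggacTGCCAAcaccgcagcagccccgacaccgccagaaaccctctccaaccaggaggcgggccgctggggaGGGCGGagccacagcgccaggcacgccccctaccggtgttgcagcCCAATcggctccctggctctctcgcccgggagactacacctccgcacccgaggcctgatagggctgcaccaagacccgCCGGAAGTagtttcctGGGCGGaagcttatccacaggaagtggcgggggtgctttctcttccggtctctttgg
Olfr1: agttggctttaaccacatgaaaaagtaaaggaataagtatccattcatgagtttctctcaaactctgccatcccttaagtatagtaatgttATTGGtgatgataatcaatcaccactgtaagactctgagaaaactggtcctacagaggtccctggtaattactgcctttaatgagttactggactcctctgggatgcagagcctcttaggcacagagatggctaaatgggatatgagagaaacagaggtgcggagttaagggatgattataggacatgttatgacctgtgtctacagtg
Slc25a42 held 5 CCAAT boxes and E2f3 held 3. Hjurp held 1 CCAAT box and 1 ETS match. Zic5 held 1 NFI core, and its GGGCGG lies in the last 50 bases. Rpl37 held matches to all 4 marked motifs. Olfr1 held 1 CCAAT box, a GC content of 41.3% and a CpG content of 0.0797 of that expected from its bases, beside 59.7% and 0.827 for Hjurp. A match is a description of letters and not evidence that a factor binds there.

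The deposited lists held 159720 to 279584 summits, and read depth is unknown. The score at rank 100000 ran from 3.76 to 28.9, with the lowest values in untreated VDR cells (3.86 ± 0.107, SD, n = 3) and the highest in GNP (20.1 ± 7.62, SD, n = 3). Shared regions made up 18.1% to 22.8% of the regions a library occupied. Their median rank lay between 10495.5 and 12234 in every library. Markers of the granule lineage were examined in each library (Atoh1, Barhl1, Zic1, Zic2, Pax6, Meis1, Neurod1 and Insm1). Of the 8, 7 or 8 had an occupied region at a gene end in every untreated VDR library. All 8 had one in every other library. A shared region lay at 6 of these 8 genes, so their occupancy in every library follows from the rule. There was no unsorted library, and the cell line libraries did not come from the sort, so these values cannot check it. Markers of other cell types were occupied less completely, but not absent. Of 4 oligodendrocyte markers 2 or 3 were occupied in each library. Olig1 was occupied in all 21, Mbp in all but VDR 2, Olig2 in all 9 primary libraries and Sox10 in the untreated VDR libraries. Each library had 1 of 4 microglial markers (Spi1) and 1 or 2 of 3 mesenchymal ones (Col1a1 in all 21). It was 0 or 1 of 3 for astrocytes (Gfap in all 3 tumor libraries). For endothelium it was 0 to 2 of 3 (Kdr in all 9 primary libraries and Cdh5 in all siNfib libraries). For Purkinje cells and interneurons it was 0 to 2 of 4 (Ptf1a in all 9 primary libraries and Gad1 in all GNP and tumor libraries). Aqp4, Cx3cr1, Csf1r, Ptprc, Pecam1, Dcn and Pcp2 had no occupied region in any library. An occupied region at a gene does not show that the gene is expressed, and the part of other cells in the results was not tested.

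Most regions belonged to few libraries. A single library accounted for 132246 regions (48.8%), and 117507 were occupied in 2 to 19. A further 6474 were occupied in 20. Of these 6474, an untreated VDR library was the missing one in 5140 (79.4%). By library, 1360 lacked VDR 1, 2870 lacked VDR 2 and 910 lacked VDR 3, against 8 to 149 for any other library. Without the 3 untreated VDR libraries, 24078 regions were occupied in all of the remaining 18, and 61.2% of those were shared by all 21. In the missing library, 3051 of the 6474 (47.1%) held a weaker summit past rank 100000 and 3423 (52.9%) held none. The limit of 100000 thus decides membership for many regions. The regions just inside it were a pair on chromosome 2, 23751 and 28956 bp from Slco4a1, at ranks 99978 and 99977 in VDR 1, and one in the body of Hivep2, a zinc finger gene, at rank 99955 in hyperplasia 1. Just outside it were chr15:96132540-96133039 at rank 100033 in hyperplasia 2, chr4:45738706-45739205 at rank 100058 in siNfia 1, and chr15:101315724-101316223 at rank 100059 in hyperplasia 2.

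Shared regions dominated the strongest summits of every library and were scarce among the weakest. Of the first 1000 summits, 86.8% to 94% lay in a shared region (median over libraries 91.5%). The share was 77.7% to 85.2% at ranks 1001 to 5000 and 59% to 70.5% at ranks 5001 to 10000. It was 36.4% to 48.3% at ranks 10001 to 20000, 13.2% to 19.8% at ranks 20001 to 50000, and 2.77% to 4.99% beyond. Since a strong summit is more likely to stay within the limit in every library, this gradient follows in part from the rule. Among the 3393 regions that ranked in the first 1000 of at least one library, 3054 (90.01%) were shared. Of those 3054, 59.6% lay within 1 kb of a protein-coding start or end, beside 16.2% of the regions that ranked as high somewhere without being shared.

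**Figure D1:**
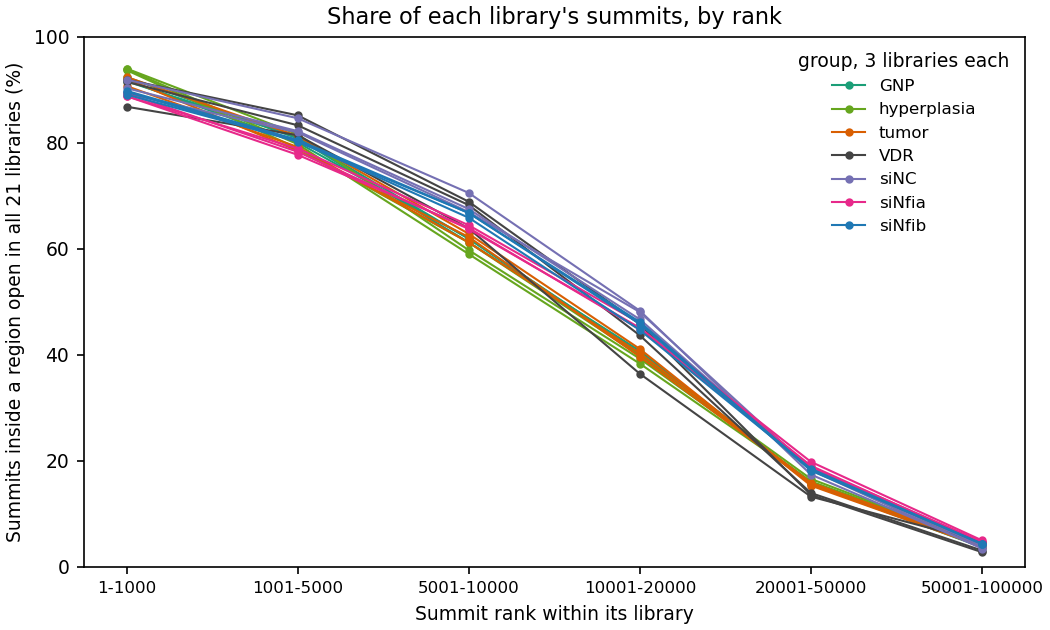
Percentage of a library's kept summits that lie in a region open in all 21 libraries (y axis) against their rank in that library (x axis, 6 rank ranges); each line is 1 library, coloured by group. All 21 lines fall together, from 86.8% to 94% in the first 1000 ranks to under 5% in the last range.

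Shared regions lay at gene starts more often than other regions did. A total of 7461 of 14732 (50.6%, Wilson 95% interval 49.8% to 51.5%, which covers counting error only) lay within 1 kb of the start or end of a protein-coding gene. The same share was 13.7% over all regions, 5.73% of regions in a single library, 16.4% of regions in 2 to 19 libraries and 41.9% of regions in 20. It increased from 8.65% of the regions in 2 libraries to 18.5% in 9 and 33.6% in 18. A further 3939 shared regions (26.7%) lay elsewhere in a gene body and 3332 (22.6%) between genes, of which 693 were more than 100 kb from any protein-coding gene. A start listed with its strand lay within 1 kb of 6015 shared regions (40.8%). Their centres sat at a median of 42 bases upstream of it (offset -42, quartiles -118 and 19), 68.9% lay upstream, and 56.1% lay within 100 bp. Only a lncRNA start, and no protein-coding one, lay within 1 kb of 354 shared regions.

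**Figure D2:**
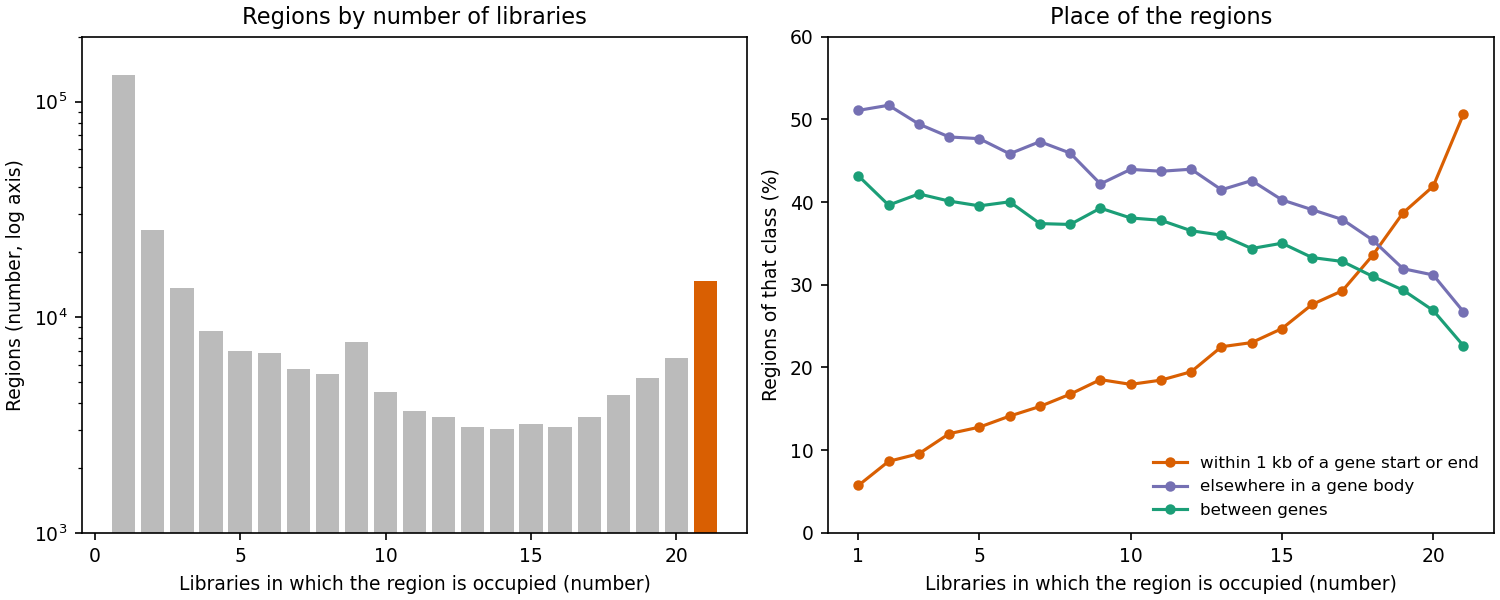
Left, number of regions (log axis) by the number of libraries that occupy them, with the 14732 regions open in all 21 in orange; right, percentage of the regions of each such class within 1 kb of a protein-coding gene start or end, elsewhere in a gene body, or between genes. The share near a start or end climbs from 5.73% in 1 library to 50.6% in 21, and the other shares fall.

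Promoters under shared regions differed in base composition mainly from promoters with no region or with a region in 1 library. RefSeq listed 21263 starts for 17492 protein-coding genes, and 6914 of the starts had a shared region. Their median GC content was 62%, against 60.7% for starts with a region in 2 to 20 libraries and 46% for starts with no region. The median ratio of observed to expected CpG was 0.806 with a shared region, 0.686 with a region in 2 to 20 libraries, 0.269 with a region in 1 library, and 0.181 with none. Of the 10137 starts with a ratio of at least 0.6, 56.5% had a shared region and 3.79% had no region at all. Of the 11126 starts below 0.6, 10.7% had a shared region and 56.4% had none. Of the starts with a shared region, 82.8% had a ratio of at least 0.6. The same held for 59.5% of the starts with a region in 2 to 20 libraries.

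Among CpG-rich starts, those with a shared region differed from those with a region in 2 to 20 libraries in CCAAT and ETS matches. They hardly differed in the SP and KLF motif. GGGCGG occurred in 70.3% of starts with a shared region, 46.2% of all starts and 11.3% of starts with no region. Restricted to starts with a CpG ratio of at least 0.6, however, it occurred in 74.9% of those with a shared region and in 75.03% of those with a region in 2 to 20 libraries. CCAAT occurred in 43.9% and 26.2% of the same starts. The ETS match occurred in 11.5% and 6.36%, the YY1 match in 5.91% and 4.02%, and the NRF1 match in 6.76% and 6.18%. At the same CpG ratio, CCAAT occurred in 36.5% of all starts and in 35.2% of the 384 starts with no region. Over all starts irrespective of CpG, CCAAT stood at 44.6% with a shared region, 38.2% of all and 39.9% with no region. TATAAA occurred in 5.54% of shared starts, 12.6% of all and 24.4% of those with no region. AP-1 matches occurred in 3.69% of shared starts and 6.99% of all, E-box matches in 13.5% and 15.6%, and NFI cores in 10.6% and 13.1%. CRE matches occurred in 3.70% and 2.23%. GLI matches were rare (0.17% and 0.18%), as were CTCF matches (0.68% and 0.56%). These shares come without a test.

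Genes of basic cell functions carried shared regions far more often than genes restricted to other tissues. Over all 21887 protein-coding genes, 7466 (34.1%) had a shared region within 1 kb of a start or end. The share was 24 of 30 (80%) for cell cycle machinery and 22 of 29 (75.9%) for spliceosome and snRNP genes. It was 62 of 97 (63.9%) for ribosomal protein genes, or 57 of 87 without the Rps6k kinases that the symbol prefix also takes in. Mitochondrial ribosome genes had 49 of 78, respiratory chain genes 58 of 97, and proteasome genes 23 of 40. Translation factors had 32 of 56 (30 of 52 without the Eif2ak kinases), and RNA polymerase II and Mediator subunits had 24 of 43. Chromatin regulators stood at 16 of 30, tumour suppressors at 11 of 17, and AP-1 and immediate early genes at 11 of 15. Genes of the lineage itself were open as well, with 11 of 20 granule progenitor genes, 10 of 20 granule neuron differentiation genes, 9 of 18 Hedgehog pathway genes and 3 of 4 NFI genes. At the other end, none of the 39 Hox genes and 1 of 1465 olfactory and vomeronasal receptor genes had a shared region. That one, Vmn1r4, shares its region with Nt5c3, a nucleotidase gene. Keratin and keratin-associated genes had 3 of 109. Markers of other cell types had 2 of 14 (glial; Slc1a3 and Olig1), 3 of 20 (immune, vascular and mesenchymal; Irf8, Col1a1 and Spi1) and 2 of 12 (Purkinje and interneuron; Itpr1 and Pvalb).

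**Figure D3:**
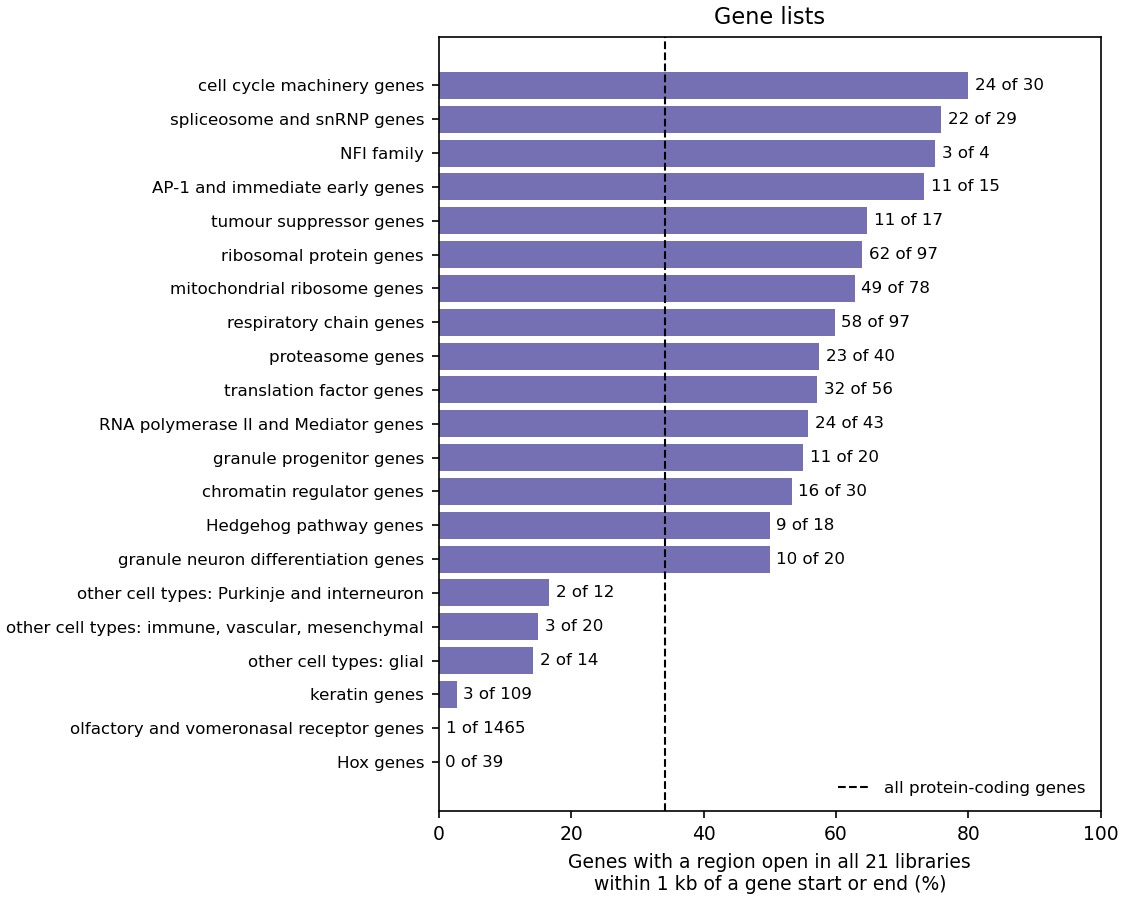
Percentage of the genes of each list with a region open in all 21 libraries within 1 kb of a start or end; bars are lists, labels give the counts and the dashed line is the share over all protein-coding genes (34.1%). The 15 lists of basic functions and of the granule lineage lie above the line and the 6 lists of other cell types, receptors, keratins and Hox genes lie below it.

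RNA genes differed by class. A shared region lay within 1 kb of 109 of 408 tRNA genes (26.7%), which RNA polymerase III transcribes, and of 1297 of 12727 lncRNA genes. It lay by 77 of 1228 miRNA genes, among them the neuronal Mir124a-3 and Mir9-3, the sensory Mir183 and Mir96, and Mir210, which hypoxia induces in many cells. It lay by 37 of 1004 snRNA genes, 38 of 1340 snoRNA genes, 71 of 9944 pseudogenes and none of 63 rRNA genes. Shared regions also came in runs. The longest held 15 of them across the histone genes of chr13:23530859-23586294, including H4c8, H1f3 and H2bc9, and a second histone run held 9 at chr13:23738547-23763942. Gse1 held 10 in its body, Nfib 9 at chr4:82492685-82513450, and the stretch with Junb and Prdx2 another 9 at chr8:84965879-84998374. Counted only within 1 kb of a start or end, and over all genes including those in runs, 7466 genes had a shared region. Of these, 1204 had 2 or more, and the most was 5.

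The region with the best rank throughout was chr2:98666914-98667413, which is 1035492 bp from the nearest protein-coding gene, Lrrc4c. It ranked first in every library except GNP 1 (rank 3), hyperplasia 2 (rank 4) and tumor 2 (rank 14). The strongest shared region at a gene was the start of Hjurp, the chaperone that loads the centromeric histone CENP-A, at chr1:88277319-88277818. It ranked 5, 3 and 12 in GNP 1 to 3, 21, 7 and 2 in hyperplasia, and 13, 16 and 2 in tumor. It ranked 42, 44 and 36 in VDR, 31, 29 and 32 in siNC, 31, 35 and 32 in siNfia, and 30, 31 and 29 in siNfib. Every cell line library thus ranked it lower than every primary library, although the difference in strength between siNC and tumor was -2.04 ± 1.11 (SE) and was not called (limma, adjusted p = 0.15). Starts of Zfp869, a zinc finger gene (ranks 11 to 124), Sp1, the GGGCGG-binding factor itself (7 to 125), Rmnd5a, a subunit of a ubiquitin ligase (4 to 202), and Slc25a42, a mitochondrial carrier for coenzyme A (22 to 242), came next. The promoters of Zfp869, Rmnd5a and Slc25a42 held 4, 3 and 5 CCAAT boxes, of which the sequence of Slc25a42 is printed above. Away from protein-coding genes, 7 of the 8 regions between 39843121 and 39848123 on chromosome 17 were shared. Of the 7, 4 lie by the pseudogene Rn18s-rs5, which resembles 18S ribosomal RNA, and 2 of these also by the lncRNA AY036118. Their worst ranks ran from 45 to 2558. All 7 had their worst rank in tumor 3, which tumor 2 shared at 1 region (rank 60 in both). The handling of reads from repeated sequence is not stated, so the level of these regions and of the chromosome 2 region is uncertain.

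Ranks of a shared region spread more over all 21 libraries than within most groups. The standard deviation of log2 rank over the 21 libraries had a median of 0.92, and the worst rank was a median of 11.1 times the best. Within groups the median standard deviation was 0.25 in GNP, 0.37 in tumor, 0.41 in hyperplasia, 0.38 in siNfib, 0.53 in siNfia, 0.55 in siNC and 0.91 in untreated VDR. The 3 untreated VDR libraries, with the lowest scores, were therefore nearly as far apart as all 21 libraries together. Regions at listed starts varied less (0.87) than those away from starts and ends (0.98). Summit position had a median standard deviation of 30.2 bp over 21 libraries, 6.81 bp within GNP and 36.0 bp within untreated VDR. The rule bounds this spread, since every summit counted had to lie inside the 500 bp region. The steadiest regions in rank were of middling strength. They were the starts of Nckipsd, an adaptor for actin regulators (ranks 24688 to 51597), Cbx6, a Polycomb subunit (10006 to 21385), Smox, spermine oxidase (15069 to 33590), Tcp11l1 (19339 to 43356) and Polrmt, the mitochondrial RNA polymerase (9534 to 21504). Each stayed within a factor of 2.09 to 2.26 between its best and worst library.

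Differences between groups were tested on strength, defined as log2 of 100000 over the rank, so that a strength of 0 is the last rank kept and a difference of 1 is a factor of 2 in rank. The tests used limma over all regions occupied in every library of a fit, with Benjamini-Hochberg adjustment over all of them and a call at an adjusted p below 0.05. Below, ± is the SE of a difference, and rose or fell is written for called differences. Because shared regions stay within 100000 ranks everywhere, their differences are bounded, and openings or closures from nothing are not among them. Strength is relative to the rest of the library, so it shows changes in order and not in absolute accessibility. The 3 comparisons among GNP, hyperplasia and tumor share libraries, as do the 2 knockdown comparisons, and the values of each are given on their own.

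Chromosome-wide shifts were the broadest pattern in these strengths. Relative to all shared regions of the same library, the 1043 shared regions on chromosome 6 had a median strength of -0.50, -0.52 and -0.52 in GNP 1 to 3 and of -0.51, -0.57 and -0.44 in hyperplasia. The median was 0.50, 0.56 and 0.06 in tumor 1 to 3, and 0.45 to 0.93 in all 12 cell line libraries. All tumor and cell line libraries lay above all GNP and hyperplasia libraries, and tumor 3 lay between the other tumor libraries and those of GNP and hyperplasia. In the test of tumor against GNP, 489 of the 1043 rose and 14 fell, with a median difference of 0.93. Against hyperplasia 465 rose and 3 fell, with a median of 0.92. On chromosome 1, which had none of this shift, 102 of 1264 rose and 101 fell between GNP and tumor, with a median of -0.13.

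The cell line libraries shared shifts on further chromosomes that the 9 primary libraries did not show. On chromosome 15 the median relative strength of 884 shared regions was -0.48 to -0.37 in the primary libraries and 0.24 to 0.60 in the cell line libraries. On chromosome 1 it was -0.48 to -0.39 and 0.30 to 0.45, on chromosome 8 it was -0.33 to -0.27 and 0.24 to 0.47, and on chromosome 17 it was -0.30 to -0.21 and 0.35 to 0.64. The reverse was seen on chromosome 11, with 0.13 to 0.39 in primary and -0.73 to -0.18 in cell line libraries, and on chromosomes 5 and 9. It was also seen on chromosomes 10 (0.15 to 0.33 and -0.54 to -0.02) and 19 (0.14 to 0.38 and -0.29 to -0.02). Chromosome 2 had -0.12 to 0.05 in primary and -0.56 to -0.21 in cell line libraries. In siNC against tumor the median difference was 1.00 on chromosome 15, where 394 regions rose and 34 fell, and 0.83 on chromosome 1, where 521 rose and 82 fell. It was -0.80 on chromosome 11, where 62 rose and 364 fell. Shared regions were also densest, per 100 protein-coding genes, on chromosomes 15 (113.9), 1 (105.0), 8 (102.0), 12 (92.8) and 6 (92.6), against 44.8 on chromosome 7 and 17.7 on the X chromosome. As a share of all regions on a chromosome the order differed. That share was lowest on chromosomes 1 (3.52%) and 6 (4.23%). It was 5.06% on chromosome 15, 5.66% on 8, 6.52% on 12, 7.44% on 7 and 6.07% on X. DNA copy number was not measured in these libraries. Each test was therefore repeated after subtracting each library's chromosome median, a choice made after the shifts were seen, and the values below say where that changed a call.

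**Figure D4:**
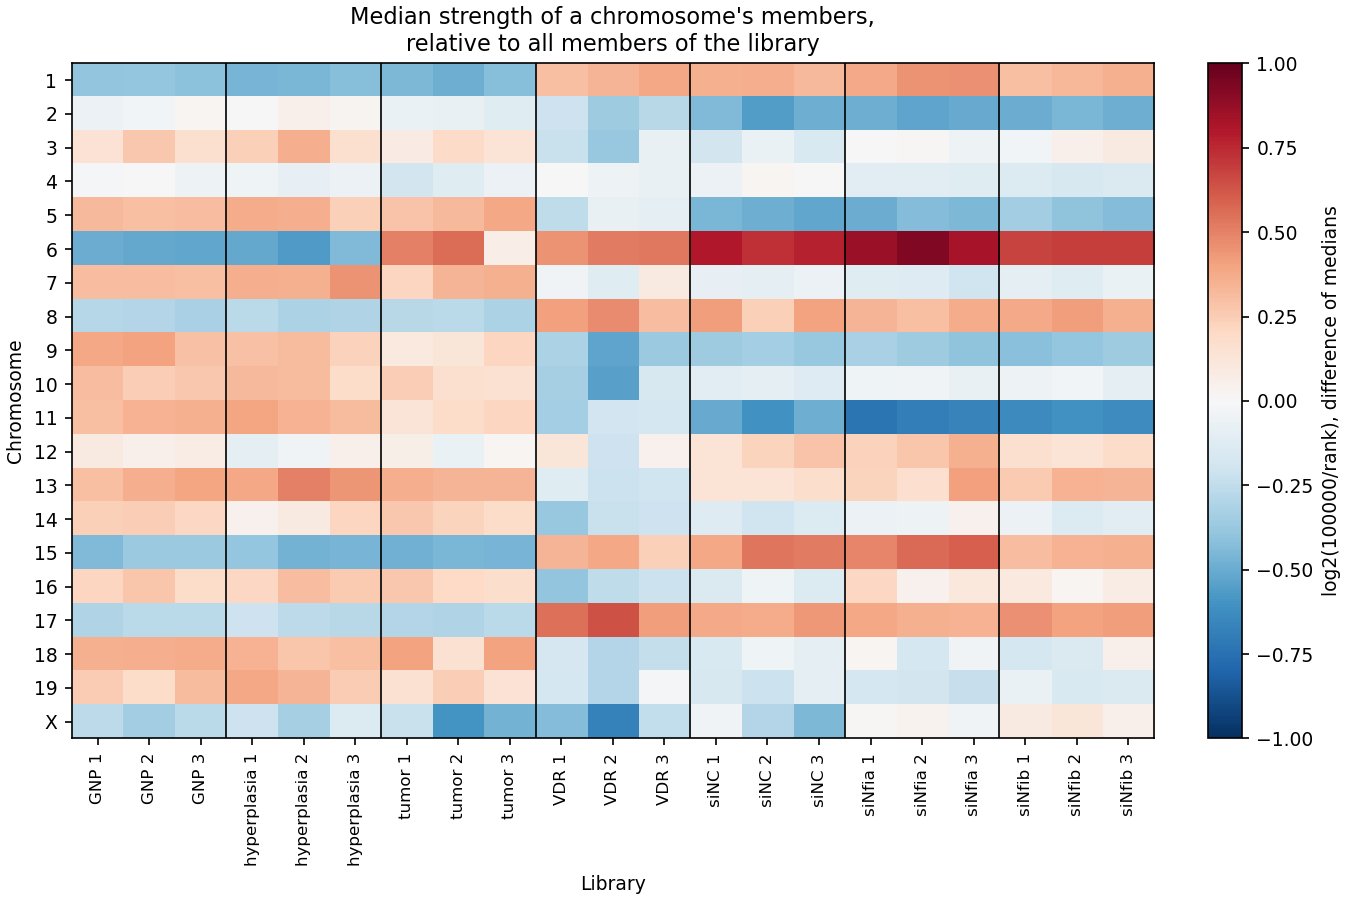
Median strength of the regions open in all 21 libraries on each chromosome (rows; Y, with 4 such regions, is left out) minus the median over all such regions of the same library, for the 21 libraries (columns, black lines between groups); red is stronger and blue weaker. Chromosome 6 turns from blue to red between hyperplasia and tumor, while chromosomes 1, 8, 15 and 17 are red and 5, 9 and 11 blue in the 12 cell line libraries alone. Chromosomes 2, 10 and 19 also lie below 0 in all 12 cell line libraries.

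From GNP to hyperplasia, 2630 of 14732 shared regions were called (17.9%), beside 20.1% of the 40246 regions tested (8083), so shared regions changed at about the background rate. Of the shared regions, 1057 rose and 1573 fell, and over all regions tested 3683 rose and 4400 fell. The share depended on position: 6.07% of shared regions at listed starts were called and 30.6% of those in gene bodies, close to the 5.93% and 28.7% of all regions at those places. The largest rise was in the body of Tll1, a tolloid-like metalloprotease, at chr8:64153169-64153668. It ranked 37501, 44394 and 52552 in GNP, 403, 266 and 668 in hyperplasia, and 3109, 4277 and 5357 in tumor. The 3 groups did not overlap, and strength rose by 6.74 ± 0.38 from GNP to hyperplasia (adjusted p = 1.3e-11) and fell by 3.32 ± 0.38 from hyperplasia to tumor (adjusted p = 3.8e-06). A region in the body of Tead1, a transcription factor of the Hippo pathway, at chr7:112826154-112826653, ranked 12808, 13808 and 18411 in GNP, 695, 129 and 55 in hyperplasia and 201, 420 and 453 in tumor. Both later groups lay above GNP and overlapped each other, with a rise of 6.44 ± 0.63 (adjusted p = 5.1e-08) in hyperplasia and 5.46 ± 0.63 (adjusted p = 7.2e-07) in tumor. The third was chr10:105638844-105639343, 64615 bp from Tmtc2, which rose by 5.53 ± 0.41 (adjusted p = 6.7e-10).

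The largest falls from GNP were as steep. The region chr3:139886365-139886864, 176316 bp from Stpg2, ranked 29, 20 and 39 in GNP, 11492, 4738 and 4647 in hyperplasia, and 9266, 9119 and 7154 in tumor. Hyperplasia and tumor overlapped, and all 6 lay far below GNP, and strength fell by 7.81 in hyperplasia (SE 0.47, adjusted p = 2.8e-11) and fell by 8.22 in tumor (SE 0.47, adjusted p = 3.3e-11). A region in the body of Lemd1 at chr1:132200548-132201047 ranked 369, 135 and 474 in GNP, 60182, 40237 and 56792 in hyperplasia and 18782, 16879 and 14541 in tumor. It ranked between 138 and 1408 in all 12 cell line libraries, above every hyperplasia and tumor library. The strength of this region fell by 7.49 (SE 0.39, adjusted p = 4e-12) in hyperplasia and was 3.82 ± 0.46 higher in siNC than in tumor (adjusted p = 1.3e-06). A region in Ebf3, a transcription factor of neuronal differentiation, fell by 4.99 (SE 0.34, adjusted p = 1.9e-10).

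From hyperplasia to tumor, 2290 shared regions were called (15.5%, beside 14.5% of the 40246 tested), of which 1550 rose and 740 fell. Over all regions tested 3681 rose and 2152 fell. After centring on each chromosome 2027 shared regions were called, of which 1237 rose and 790 fell, and 1925 were called the same way in both. At listed starts 9.63% of shared regions were called and in gene bodies 21.5%, beside 8.11% and 18.9% of all regions at those places. The largest rise was at the start of Pgk1, a glycolytic kinase on the X chromosome, at chrX:106186730-106187229. It ranked 785, 2419 and 1918 in GNP, 7831, 10735 and 5193 in hyperplasia, 597, 273 and 177 in tumor, and between 222 and 1355 in the cell line libraries. Hyperplasia was the lowest group and overlapped no other, with a rise of 4.63 ± 0.50 into tumor (adjusted p = 2.2e-06). Next was chr6:122810805-122811304, 8692 bp from Slc2a3, a glucose transporter gene, at ranks 506, 566 and 1077 in hyperplasia and 41, 55 and 13 in tumor. All tumor libraries lay above all hyperplasia libraries, by 4.45 ± 0.69 (adjusted p = 0.00011) and by 3.72 after centring. The region chr6:128802966-128803465 near Klrb1b rose by 4.26 ± 0.52 (adjusted p = 7.8e-06).

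Of the falls into tumor, chr3:5860406-5860905 went from ranks 366, 56 and 10 in hyperplasia to 268, 6669 and 6139 in tumor. Tumor 1 lay within the hyperplasia range, and the fall of 5.24 (SE 1.02, adjusted p = 0.0011) rests on tumor 2 and tumor 3. In the cell line this region ranked between 27 and 33 in all 12 libraries. It lies outside genes, its repeat content was not looked up, and its level is uncertain for the same reason as that of the chromosome 2 region. The region chr15:36854905-36855404, 52171 bp from Ywhaz, ranked 1331, 1837 and 2676 in hyperplasia, 14621, 36586 and 57076 in tumor and 56454, 71869 and 55813 in GNP. Hyperplasia stood above both other groups, with a fall of 4.06 (SE 0.38, adjusted p = 4.3e-07). The shared start of Psmb9, an immunoproteasome subunit, and Tap1, a peptide transporter for antigen presentation, at chr17:34187190-34187689 ranked 2782, 2641 and 5841 in hyperplasia and 31809, 57862 and 37329 in tumor. The groups did not overlap, and strength fell by 3.55 (SE 0.35, adjusted p = 7.8e-07).

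Between GNP and tumor, 2703 shared regions were called (18.3%, beside 20.2% of the 40246 tested), of which 1621 rose and 1082 fell. Over all regions tested 4684 rose and 3443 fell. Centred on each chromosome the counts of shared regions were 1351 and 1112. The largest rise was in the body of Hkdc1, which encodes a protein of the hexokinase family, at chr10:62401670-62402169. It ranked 68503, 55074 and 63437 in GNP, 2105, 2890 and 779 in hyperplasia and 1144, 947 and 1360 in tumor, a rise of 5.77 ± 0.40 (adjusted p = 3.5e-10). A region in the body of Hk2, hexokinase 2, at chr6:82756830-82757329, ranked 91880, 85965 and 83393 in GNP, 17627, 24628 and 8518 in hyperplasia and 2448, 1065 and 1780 in tumor. The 3 groups were apart in that order, and the rise from GNP to tumor was 5.70 ± 0.36 (adjusted p = 1.5e-10), or 4.96 after centring. Apart from the regions by Stpg2 and in Lemd1, the largest fall was in Ddx31, an RNA helicase gene, at chr2:28860967-28861466. It went from ranks 234, 308 and 483 in GNP to 14012, 5937 and 9540 in hyperplasia and 12501, 12247 and 11151 in tumor, a fall of 5.19 (SE 0.39, adjusted p = 1.6e-09) into tumor.

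**Figure D5:**
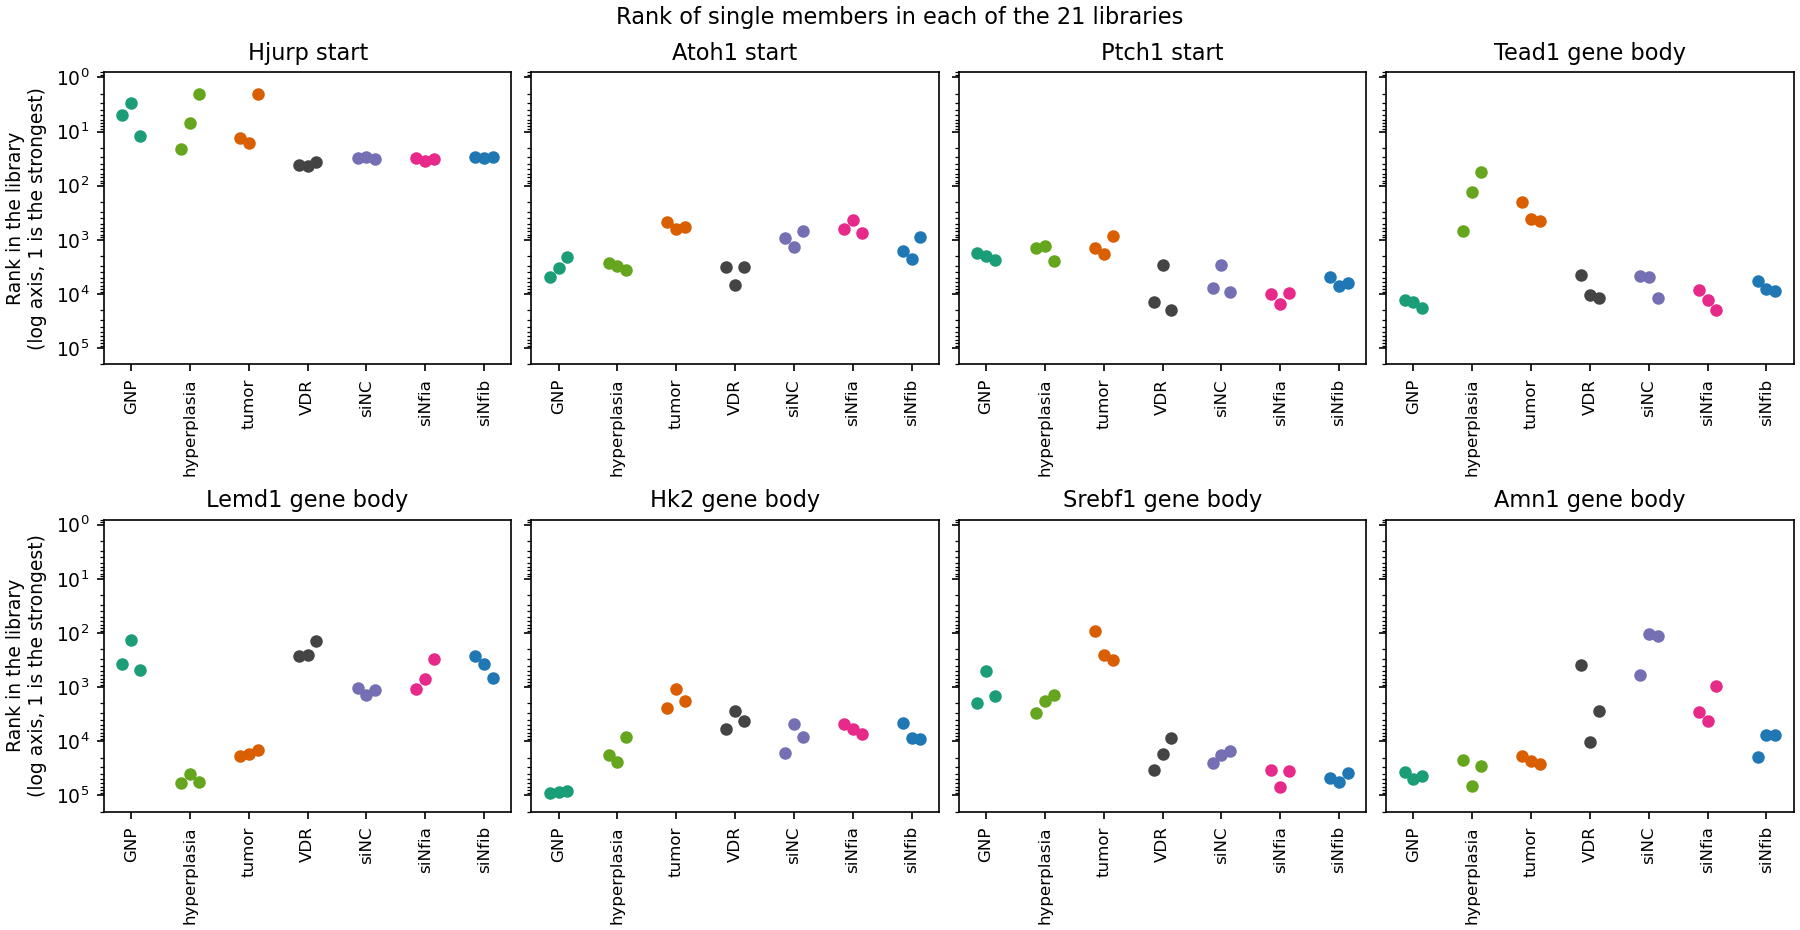
Rank (log axis, 1 is the strongest and stands at the top) of 8 regions open in all 21 libraries, at the starts of Hjurp, Atoh1 and Ptch1 and in the bodies of Tead1, Lemd1, Hk2, Srebf1 and Amn1; each point is 1 library, in 7 groups of 3. Lemd1 drops only in hyperplasia and tumor, Srebf1 lies lower in every cell line library than in every primary one, and Amn1 lies lower in every siNfia and siNfib library than in every siNC library.

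With siNfia, 361 shared regions were called against siNC (2.45%, beside 2.5% of the 32978 tested), of which 84 rose and 277 fell. Over all regions tested 425 rose and 401 fell. The count fell to 164 when only the siNC and siNfia libraries were fitted, and to 222 without siNfia 2 or siNfia 3 and 235 without siNC 3. At listed starts 0.58% were called and in gene bodies 4.60%, close to the 0.55% and 4.01% of all regions there. The largest fall was at chr12:52674961-52675460, 23377 bp from Akap6, a kinase-anchoring gene. It ranked 389, 1253 and 819 in siNC, 20333, 14357 and 8122 in siNfia and 11240, 14085 and 16970 in siNfib. All 6 knockdown libraries lay below siNC, and strength fell by 4.18 with siNfia (SE 0.53, adjusted p = 9.1e-06) and fell by 4.24 with siNfib (SE 0.53, adjusted p = 2.9e-07). Region chr8:122769605-122770104, 5615 bp from Acsf3, ranked 868, 2372 and 1292 in siNC, 18820, 12225 and 16393 in siNfia and 21826, 25051 and 16189 in siNfib. It too was lower in all 6 knockdown libraries, and fell by 3.49 (SE 0.50, adjusted p = 7.2e-05) with siNfia. The largest rises with siNfia were chr15:64533038-64533537, 150347 bp from Asap1 (3.39 ± 0.54, adjusted p = 0.00028), Baalc (3.12 ± 0.59, adjusted p = 0.0016) and the start of H4f16, a histone H4 gene (3.09 ± 0.55, adjusted p = 0.0008). The first of these ranked 9314, 4939 and 6030 in siNC, 939, 1025 and 252 in siNfia and 30771, 34972 and 21299 in siNfib, so the knockdowns lay on opposite sides of the control.

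With siNfib, 1444 shared regions were called (9.8%, beside 8.65% of the 32978 tested), of which 427 rose and 1017 fell. Over all regions tested 1113 rose and 1738 fell. Without siNfib 1, siNfib 2 or siNfib 3 the count of shared regions called was 944, 955 and 927. Nearly all called shared regions lay away from listed starts, where 1.15% were called (55 rose and 14 fell). This was close to the 1.19% of all regions there (0.94% rose and 0.25% fell). In gene bodies 17.9% of shared regions were called and between genes 18.4% (145 rose and 468 fell). All regions at those places stood at 13.4% and 14.0%. The region with the largest change was chr4:64282462-64282961, 235697 bp from Tnc, an extracellular matrix gene, and next to the lncRNA Gm31115. It ranked 137, 124 and 325 in siNC, 263, 205 and 122 in siNfia and 31322, 45556 and 27305 in siNfib. The siNfib libraries were the lowest of all 21, and strength fell by 7.58 (SE 0.54, adjusted p = 6.7e-13). A region in the body of Amn1 at chr6:149174861-149175360 ranked 599, 105 and 116 in siNC, 2924, 4169 and 950 in siNfia and 19407, 7582 and 7818 in siNfib. It was lower in all 6 knockdown libraries, and fell by 5.76 (SE 0.62, adjusted p = 1.3e-08) with siNfib and by 3.54 (SE 0.62, adjusted p = 0.00068) with siNfia. A region in Sh3gl2, which encodes a synaptic endophilin, fell by 5.72 (SE 0.57, adjusted p = 2.5e-09) with siNfib, from ranks 189, 441 and 101 to 13807, 15697 and 5736, while siNfia stayed at 229, 111 and 228.

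The rises with siNfib included a region that fell with siNfia. A region in Bcl2l13, a BCL2 family gene, at chr6:120858245-120858744 ranked 744, 1370 and 1466 in siNC, 51, 45 and 47 in siNfib and 6315, 10450 and 10428 in siNfia. The 3 groups did not overlap, with a rise of 4.59 ± 0.52 (adjusted p = 4.3e-08) with siNfib and a fall of 2.95 (SE 0.52, adjusted p = 0.00079) with siNfia. The region chr1:177646055-177646554 ranked 52432, 44389 and 34783 in siNC, 886, 1326 and 1295 in siNfib and 69582, 43515 and 84112 in siNfia, and it rose by 5.23 ± 0.46 (adjusted p = 1.8e-10) with siNfib. It had ranked 1972, 1936 and 2367 in GNP. The region chr15:31535997-31536496 by Marchf6 rose by 4.44 ± 0.58 (adjusted p = 6.1e-07). At the targeted genes themselves, the shared region at the start of Nfia ranked 33240, 27471 and 39838 in siNC and 24314, 20267 and 25753 in siNfia, and that at an end of Nfib ranked 19959, 8815 and 11690 in siNC and 10245, 5058 and 5187 in siNfib. Neither was called in its own knockdown, and accessibility does not measure the loss of an mRNA to an siRNA.

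The cell line differed from tumor at more shared regions than any pair of primary groups, in numbers called: 6129 in siNC against tumor (41.6%, beside 38.2% of the 32992 tested), of which 3236 rose and 2893 fell. Over all regions tested 6183 rose and 6425 fell. With chromosomes centred 5317 shared regions were called, and 4588 the same way in both. Cell line, culture and preparation changed together here and cannot be told apart. Unlike the other comparisons, listed starts were called often too, at 36.6% of the shared regions there and 46.6% in gene bodies, beside 32.8% and 41.2% of all regions at those places. The largest rises were at chr15:75086607-75087106, chr12:3109716-3110215 and chr14:19415522-19416021, all outside genes. The first ranked 14, 15 and 22 in siNC and 24517, 91590 and 70956 in tumor, a rise of 11.67 ± 0.62 (adjusted p = 9.8e-12). It ranked between 10 and 27 in all 12 cell line libraries, and in hyperplasia it ranged from 364 to 30531. The second rose by 9.77 ± 0.66 and the third by 9.62 ± 0.65 (adjusted p = 4.8e-10 each). In tumor the second ranked 9620, 60475 and 48648, and the third ranked 12422, 68770 and 52666. The repeat content of these regions was not looked up. Their level is uncertain for the same reason as that of the chromosome 2 region with the best rank.

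The largest falls in siNC against tumor lay in gene bodies. Tspan9, a tetraspanin gene on chromosome 6, ranked 57, 262 and 35 in tumor and 20245, 13234 and 21889 in siNC, a fall of 7.81 (SE 0.66, adjusted p = 1.1e-08). Ankdd1a ranked 155, 219 and 75 in tumor and 34414, 15926 and 15227 in siNC, a fall of 7.21 (SE 0.57, adjusted p = 5.5e-09). It ranked 2827, 1722 and 2210 in untreated VDR and 3911, 4492 and 7400 in siNfib, so the low ranks were those of siNC and siNfia (33503, 26625 and 43630) and not of all cell line groups. In Srebf1, which encodes a master factor of lipid synthesis, the region chr11:60203063-60203562 ranked 91, 257 and 312 in tumor, 507 to 1987 in GNP, 1412 to 2947 in hyperplasia and 25224, 18105 and 15277 in siNC. All 12 cell line libraries lay below all 9 primary ones, and strength fell by 6.62 (SE 0.56, adjusted p = 1.3e-08).

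Hedgehog pathway genes held 12 shared regions. Between GNP and hyperplasia 1 rose, a region at Gsk3b, and none fell, and neither knockdown gave a call. Over all shared regions 17.9% were called in hyperplasia, 2.45% with siNfia and 9.8% with siNfib. With 12 regions these counts do not set the list apart from those shares. The start of Ptch1 ranked 1757, 1983 and 2385 in GNP, 1387, 1295 and 2474 in hyperplasia and 1393, 1831 and 862 in tumor, with overlapping groups. It ranked 7775, 2935 and 9281 in siNC, a fall of 2.20 against tumor (SE 0.54, adjusted p = 0.0027). The region at the start of Smo, the pathway's transducer on chromosome 6, rose by 1.16 ± 0.35 from GNP to tumor (adjusted p = 0.017), but this call was lost after centring (0.42, adjusted p = 0.43). A region at Gli2, a transcription factor at the end of the pathway, ranked 10198, 2860 and 5418 in tumor and 976, 1111 and 828 in siNC, and it rose by 2.49 ± 0.55 (adjusted p = 0.00096). It ranked 116, 101 and 111 in untreated VDR. Falls in siNC were also called at Gsk3b, a kinase that acts on the Gli factors, and at Mycn, a growth-promoting target of the pathway.

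Granule progenitor genes held 11 shared regions. The start of Atoh1, the transcription factor that keeps progenitors dividing, ranked 4758, 3333 and 2033 in GNP, 2649, 3054 and 3652 in hyperplasia and 463, 617 and 587 in tumor. All tumor libraries lay above all GNP and hyperplasia libraries, by 2.53 ± 0.42 over GNP (adjusted p = 8.1e-05) and, after centring, by 1.79 (adjusted p = 0.0027). The region at Tlx3 fell by 2.07 in hyperplasia (SE 0.37, adjusted p = 0.00016) and rose by 2.50 ± 0.37 into tumor (adjusted p = 6.5e-05). In siNC against tumor, where 41.6% of all shared regions were called, 1 of the 11 rose (Zic2) and 6 fell, among which Barhl1 fell by 3.43 (SE 0.42, adjusted p = 1.5e-06), Sox11 fell by 2.72 (SE 0.55, adjusted p = 0.00049) and Neurod1 fell by 2.24 (SE 0.42, adjusted p = 0.0002). Of the 6, Meis1 missed the threshold after centring (adjusted p = 0.052). Barhl1 ranked 4424, 6760 and 3708 in tumor and 52572, 72806 and 36320 in siNC. Of 12 regions at granule neuron differentiation genes, 2 were called with siNfib, beside 9.8% of all shared regions. Grm4, a glutamate receptor gene, fell by 2.49 (SE 0.53, adjusted p = 0.0011) and Etv1 rose by 1.54 ± 0.49 (adjusted p = 0.04). Cntn2, an axonal adhesion gene, rose by 3.24 ± 0.44 in siNC against tumor (adjusted p = 5.1e-06).

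From hyperplasia to tumor, 6.03% of shared regions at listed starts fell and 3.59% rose, and the lists of basic cell functions are read beside these shares. Of 70 regions at ribosomal protein genes, 9 fell and none rose from hyperplasia to tumor. Respiratory chain genes had 7 falls and 1 rise of 66, spliceosome genes 6 falls of 29, and mitochondrial ribosome genes 4 falls and 1 rise of 55. Translation factor genes had 4 falls of 37 and RNA polymerase II and Mediator genes 2 of 25, with no rise. The calls were balanced at proteasome genes (2 rises and 2 falls of 27), cell cycle genes (1 and 1 of 31) and chromatin regulator genes (1 and 1 of 22). The median difference in the ribosomal protein, respiratory chain, spliceosome and mitochondrial ribosome lists lay between -0.63 and -0.31, beside -0.28 for all shared regions at listed starts. It was -0.73 at RNA polymerase II and Mediator genes, -0.63 at proteasome genes and -0.44 at cell cycle genes. At translation factor genes it was -0.40 and at chromatin regulator genes -0.16. In siNC against tumor, 17.6% of shared regions at listed starts rose and 18.95% fell. Cell cycle genes had 3 rises and 10 falls of 31, so the share called was near that of all shared regions (41.6%). Among them E2f3, whose promoter is printed above, ranked 54, 34 and 94 in tumor and 272, 354 and 626 in siNC, a fall of 2.82 (SE 0.77, adjusted p = 0.0058). Calls at Mcm4, Mcm5, Mcm6, Mcm7, Pcna, Cdc6 and a second region of Ccnd1 were lost after centring. The region at Rpl37 ranked 191 to 2912 over all 21 libraries. Tumour suppressor genes, with the same shares as background, had no rise and 6 falls of 12, of which the region shared by Brca1 and Nbr1 fell by 3.34 (SE 0.55, adjusted p = 5e-05), from ranks 399, 687 and 345 to 4357, 5177 and 4324.

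Of 15 regions at AP-1 and immediate early genes, which respond to stress and dissociation as well as to growth signals, 2 rose in hyperplasia and 2 in tumor against GNP. Over all shared regions 17.9% and 18.3% were called in those comparisons, so these counts do not set the list apart. Fosl2 ranked 2609, 1729 and 1852 in GNP, 151, 442 and 285 in hyperplasia, 288, 518 and 74 in tumor and 4583, 5064 and 9116 in siNC. GNP and siNC lay below both other groups. The region rose by 2.93 ± 0.63 in hyperplasia (adjusted p = 0.0012) and fell by 4.74 in siNC against tumor (SE 0.65, adjusted p = 7.1e-06). A region at Junb moved the other way in that comparison, at ranks 7644, 13186 and 8817 in tumor and 693, 684 and 516 in siNC, and rose by 3.94 ± 0.51 (adjusted p = 2.8e-06). Tumor cells were dissociated differently from GNP and hyperplasia cells, and the part of this in the values was not tested. Of the 4 regions at NFI family genes, the start of Nfia fell by 0.96 in hyperplasia (SE 0.29, adjusted p = 0.019) and by 1.26 in siNC against tumor (SE 0.38, adjusted p = 0.012), and none was called with either knockdown. Over all shared regions only 2.45% were called with siNfia and 9.8% with siNfib, so 4 regions without a call are not unusual.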

How the data were processed

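Peak summits were analysed for 21 Omni-ATAC libraries. The deposited score of a summit was taken to be a −log10 value, of p or of q, as MACS2 writes it, since the authors do not state which. Bowtie2, Picard, MACS2 and the mm10 build are named in the submitters' processing notes, without versions. Any read shift, filter or removal of duplicates is not stated. Scores depend on depth, which is unknown, so they only ranked summits within a list, and no counting interval could be given for a strength.

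Regions and occupancy followed the stated rule (Python 3.11.15, pandas 2.3.3). Gene ends came from RefSeq GRCm38.p6. Ranks were tested with limma 3.58.1 in R 4.3.3 (trended empirical Bayes) in 3 fits: 9 primary libraries, 9 treated VDR libraries, and siNC with tumor. The limma steps were tested on simulated data. Members, lists and tests were chosen with earlier results of these data known. Named regions were those with the best worst rank, the smallest spread, ranks nearest the limit, the 3 largest called differences each way per comparison, and up to 4 genes per list with the best worst rank. List genes named for a call were chosen after their values were seen. Alternatives varied the list length, region width, score minimum, scale, fit and libraries. Motifs were searched in promoters only, on both strands. Results for 1 gene of the Hedgehog list are not reported here.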

Additional observations from a re-analysis of the deposited data

How the results depend on the processing

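The number of regions shared by all libraries was 8894 with 50000 summits kept, 5114 with a score of at least 10 and 24078 without the 3 untreated VDR libraries, and it ran from 14740 to 17602 when 1 library was left out. Their share near a gene start or end was 59.3% with 50000 summits, 43.6% with whole lists, 53.6% with 250 bp and 48.7% with 1000 bp regions, 54.7% with a score of at least 10, 49.3% without untreated VDR, and 39.4% or 56.1% for a distance of 250 or 2500 bp. Calls with siNfia numbered 223 with 50000 summits, 198 on the normal quantile of the rank and 164 in a fit of only the 2 groups, and 222 to 286 without 1 library. Calls with siNfib numbered 856 with 50000 summits and 927 to 1514 without 1 library; the cause was not tested. Under the other settings run, counts of calls stayed within 1.5 times. The 36 named differences stayed called with the same direction in all 539 repeats in which their region was still fitted. Settings that dropped the region were not counted. As the 36 were picked as the largest called differences in these same data, their staying called is weak support. With the replicate block the counts were 2618 (hyperplasia against GNP), 2252 (tumor against hyperplasia), 2679 (tumor against GNP), 391 (siNfia), 1493 (siNfib) and 6008 (siNC against tumor). Deviations of same-numbered libraries from their group means correlated between -0.077 and 0.048. Among siNC, siNfia and siNfib they were all positive, from 0.0036 to 0.048. Differently numbered libraries were not compared, so the check cannot settle if replicate numbers pair the samples. The main fits used no pairing. Centring per chromosome was chosen after seeing the data.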
